A study of Mus musculus with 12 samples.

Results

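The genes described here are Foxp3, which encodes the forkhead transcription factor of regulatory T cells, and the 5 Ikaros family genes Ikzf1 to Ikzf5, in mouse CD8 and CD4 T cells turned into Foxp3-positive cells in culture. They are 6 of the 22180 genes measured. Each was read by the 1 transcript cluster (a set of array probes summed up to 1 value) that the platform annotation gives to that gene alone, and the brightest cluster would have stood for a gene with several. The T cells carried a reporter of Foxp3 expression, green fluorescent protein (GFP), on a C57BL6 background, and all wells held BALB/c CD11c dendritic cells, which stimulate T cells of the other strain, at 20000 dendritic to 200000 T cells.

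RNA was measured on 12 Affymetrix arrays in 4 groups of 3, replicates A to C. CD8 Foxp3-positive cells were CD8 T cells kept for 4 days with 40 nM retinoic acid, 5 ng/mL TGF-β and 5 ng/mL IL-2, then sorted as GFP-positive, and CD8 control cells were kept for 4 days with 5 ng/mL IL-2 alone and sorted as GFP-negative. CD4 Foxp3-positive and CD4 control cells were made with the same additions over 5 days. The cytokines and the sort changed together within each lineage, and culture time differed between the lineages, so these cannot be told apart. Cells were pooled before staining, and nothing in the labels says that replicates came from separate cultures or animals, so p-values measure only the spread between these arrays, which may be technical.

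Ikaros family proteins are zinc finger transcription factors. Fingers near one end of the protein bind DNA, for Ikaros and its closer relatives at sites with a GGGAA core, fingers near the other end join family members to each other, and Ikaros, Helios and Aiolos recruit repressor complexes such as NuRD, a chromatin remodelling and deacetylase complex. Helios (Ikzf2) and Eos (Ikzf4) are known from regulatory T cells, where Eos works as a corepressor with Foxp3, Aiolos (Ikzf3) is known from B cells and from helper T cells in which it silences Il2, Ikaros (Ikzf1) acts throughout lymphocyte development, and Pegasus (Ikzf5) is the most distant relative.

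Values are log2 expression levels, on which 1 unit is a 2-fold difference in array signal, and means are given ± SD over 3 arrays. Changes are log2 fold changes ± the standard error of the limma model with its Benjamini-Hochberg adjusted p over all 22180 genes, and a change was called where that p was under 0.05. Levels of different genes come from different probes, so the members' levels were not set against each other. Sums of marker levels and places relative to the median of all genes are rough guides only. Precision is limited by there being 3 arrays in each group.

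The cell type markers followed the labels. The CD8 coreceptor genes Cd8a and Cd8b1, summed and given as log2, lay at 13.27 to 13.30 in CD8 Foxp3-positive and 12.78 to 12.89 in CD8 control cells, and at 7.68 to 8.55 in CD4 Foxp3-positive and 7.89 to 8.64 in CD4 control cells. Cd4 stood at 5.17 ± 0.25 in CD8 Foxp3-positive and 5.36 ± 0.58 in CD8 control cells, against 11.92 ± 0.11 in CD4 Foxp3-positive and 12.31 ± 0.12 in CD4 control cells. All 5 measured general T cell markers were above 5.60, the median of all genes' mean levels, in every group. Across genes, which are no replicates, arrays of 1 group correlated at 0.992 to 0.995.

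Foxp3 (Entrez gene 20371, chromosome X, 7579676 to 7595243, GRCm38.p6) was the property the cells were sorted on, so its difference from the controls is a description and was not tested. Its level was 12.45, 12.46 and 12.53 in CD8 Foxp3-positive cells (replicates A, B and C), against 5.41, 5.23 and 6.33 in CD8 control cells. In CD4 cells it was 12.44, 12.39 and 12.49 in Foxp3-positive cells, against 5.68, 6.07 and 5.52 in controls. The 6 Foxp3-positive arrays lay within a narrow band far above the 6 control arrays, which stood near the median of all genes and scattered more widely. The log2 fold changes were 6.82 in CD8 and 6.68 in CD4 cells, or 113-fold and 103-fold in array signal, and were the rank 2 and rank 3 largest changes of all genes in their comparisons. No background level was at hand, so these folds are ratios of signal and not of RNA amount.

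Between the lineages Foxp3 showed little difference. Its mean was 12.48 ± 0.05 in CD8 Foxp3-positive and 12.44 ± 0.05 in CD4 Foxp3-positive cells, a difference of 0.04 ± 0.23 (95% interval -0.45 to 0.53, adjusted p = 0.964). The means of the controls were 5.66 ± 0.59 in CD8 and 5.76 ± 0.29 in CD4 cells, a difference of -0.10 ± 0.23 (95% interval -0.59 to 0.38, adjusted p = 0.831). The high CD8 control array was replicate C, and without it the CD8 controls came out lower by a called margin (-0.44, adjusted p = 0.0466). Both groups in each of these comparisons were sorted on the same side of GFP. The sort thus limited their Foxp3 levels, and these tests cannot show how the lineages compare without it. The ± 0.23 is the standard error of the model, which shares 1 spread over all 4 groups. The controls scattered most in it (SD 0.59 and 0.29).

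The windows around the transcription starts of Foxp3, Ikzf1 and Ikzf5 are the members' own regulatory DNA, in which the Ikaros core can be looked for. For Ikzf2, Ikzf3 and Ikzf4 no window was at hand. Of the windows at hand, those that hold a match to this core are shown. They run from 250 bases before to 50 bases after an annotated start, come from RefSeq on build GRCm38.p6, and are written 5′ to 3′ on the gene's strand with every GGGAA on either strand (TTCCC on the strand shown) in capitals. The Foxp3 window is chrX:7579426-7579725 on the plus strand, the Ikzf1 window, the downstream of 2 annotated, chr11:11689927-11690226 on the plus strand, and the Ikzf5 window chr7:131410429-131410728 on the minus strand.
Foxp3: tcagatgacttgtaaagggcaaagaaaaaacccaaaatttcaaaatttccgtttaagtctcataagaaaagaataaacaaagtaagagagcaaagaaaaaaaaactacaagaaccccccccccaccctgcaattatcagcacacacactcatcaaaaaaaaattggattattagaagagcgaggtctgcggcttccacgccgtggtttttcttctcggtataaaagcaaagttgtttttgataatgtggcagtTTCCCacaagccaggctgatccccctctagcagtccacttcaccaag
Ikzf1: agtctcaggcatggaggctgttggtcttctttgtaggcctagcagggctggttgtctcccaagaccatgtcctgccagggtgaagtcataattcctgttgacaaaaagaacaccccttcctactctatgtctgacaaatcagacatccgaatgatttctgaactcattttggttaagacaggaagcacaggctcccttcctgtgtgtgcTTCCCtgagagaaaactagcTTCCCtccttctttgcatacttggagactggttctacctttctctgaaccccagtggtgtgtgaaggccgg
Ikzf5: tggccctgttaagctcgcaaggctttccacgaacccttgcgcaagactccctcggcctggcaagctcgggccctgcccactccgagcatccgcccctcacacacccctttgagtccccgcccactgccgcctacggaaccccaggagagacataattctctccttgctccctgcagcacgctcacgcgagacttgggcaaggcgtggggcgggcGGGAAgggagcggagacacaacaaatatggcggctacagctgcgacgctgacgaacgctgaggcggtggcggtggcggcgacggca

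The Ikaros core had 1 match in the Foxp3 window, starting 4 bases into the transcript, 2 matches in this Ikzf1 window, at -41 and -21, and 1 match at -36 in the Ikzf5 window. The other annotated windows of Foxp3 and Ikzf1 held 0. Of all 32851 windows of this length 62.7% held at least 1 match and 27.1% at least 2, so these counts are common. The match in the Foxp3 window overlapped 1 of the 2 matches there to GGAAA, the core of NFAT, the factor that carries T cell receptor signals (61.3% of all windows hold 1). None of the 5 windows held TGTGGT, the Runx core, or TGTTTAC, a forkhead motif, on either strand (16.8% and 3.65% of all windows hold one). A match is a description of letters, not of a bound site.

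**Figure D1:**
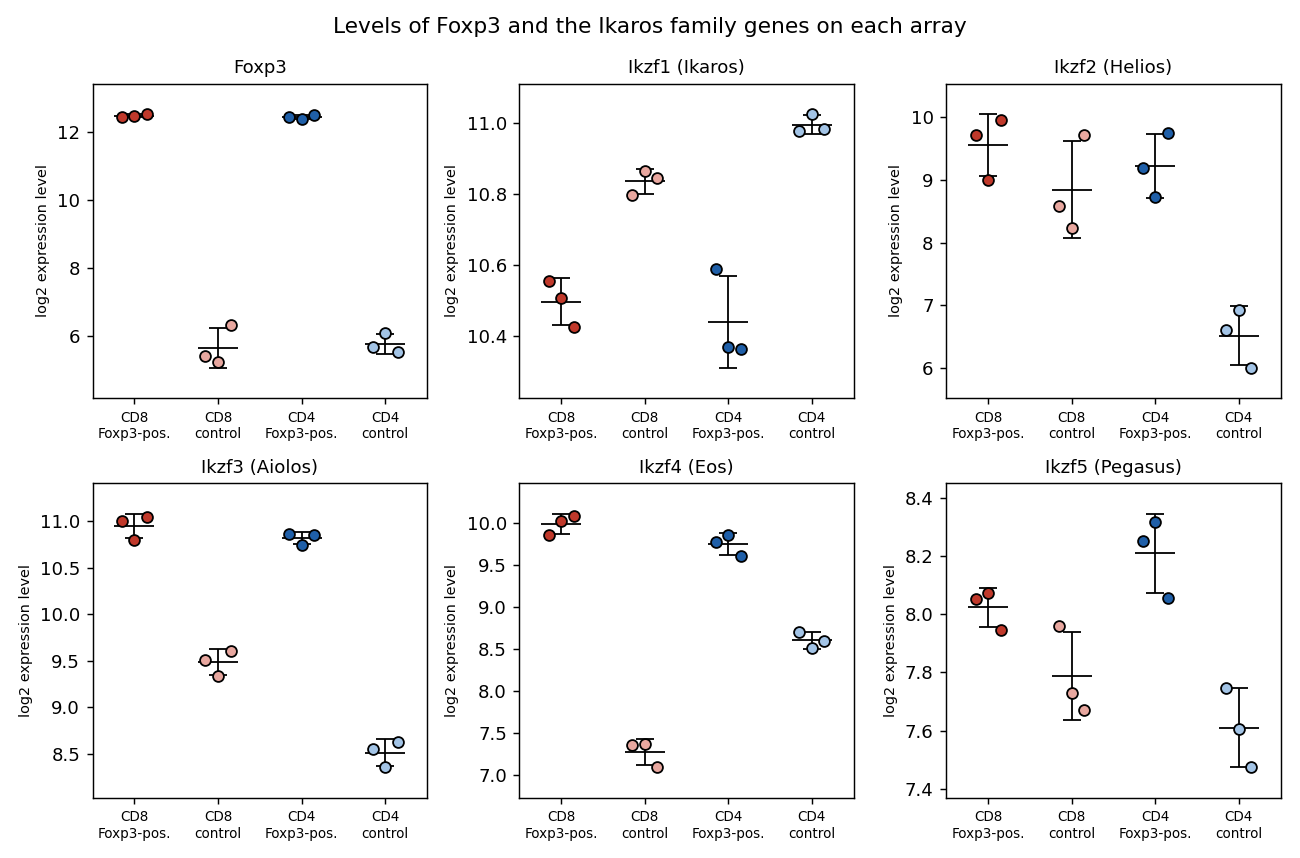
Log2 expression level (vertical axis, a separate scale for each gene) of Foxp3 and the Ikaros family genes in the 4 groups (horizontal axis). Each point is 1 array, replicates A to C from left to right, with the mean as a long bar and the SD as error bars. Ikzf4 stands at 9.86 to 10.09 in CD8 Foxp3-positive and 7.09 to 7.37 in CD8 control cells, while Ikzf1 is the one member lower in both Foxp3-positive groups.

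In CD8 cells, 2 of the 5 Ikaros family genes rose, Ikzf3 and Ikzf4, 1 fell, Ikzf1, and 2 were not called. Over all genes 20.0% were called in this comparison, 9.39% higher and 10.6% lower. In CD4 cells 4 of the 5 rose, Ikzf2 to Ikzf5, and Ikzf1 fell, where 22.5% of all genes were called, 12.1% higher and 10.4% lower. Among 5 genes such counts are small, and the family is therefore described gene by gene. In these bulk samples, more cells of a kind and more RNA per cell cannot be told apart.

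Ikzf4 (Eos, Entrez gene 22781, chromosome 10, 128630839 to 128669671) had the largest change of the family in CD8 cells. Its levels were 9.86, 10.03 and 10.09 in CD8 Foxp3-positive cells, against 7.36, 7.37 and 7.09 in CD8 control cells. It rose 6.59-fold (2.72 ± 0.11, adjusted p = 5.37e-09), which put it at rank 88 of all genes by size of change. In CD4 cells the levels were 9.78, 9.87 and 9.61 in Foxp3-positive cells, against 8.71, 8.51 and 8.60 in controls, and the rise was 2.21-fold (1.14 ± 0.11, adjusted p = 5.68e-06). The arrays of the Foxp3-positive and control groups did not overlap in either lineage. Such a lack of overlap is common, as 33.5% of all genes had it in CD8 and 37.8% in CD4 cells. The same shares stand beside each later statement on overlap between a gene's Foxp3-positive and control arrays. The rise in CD8 cells exceeded that in CD4 cells by 1.58 ± 0.15 (adjusted p = 3.6e-05).

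The 2 lineages differed in Ikzf4 in the control cells, with no called difference in the Foxp3-positive cells. In controls it was lower in CD8 (7.27 ± 0.16) than in CD4 cells (8.61 ± 0.10), by 2.52-fold (-1.33 ± 0.11, adjusted p = 2.8e-06). In Foxp3-positive cells it was 9.99 ± 0.12 in CD8 and 9.75 ± 0.13 in CD4 cells. The difference of 0.24 ± 0.11 was not called (95% interval 0.005 to 0.48, adjusted p = 0.292), though limma's unadjusted p was 0.0461. The order of the groups was therefore CD8 Foxp3-positive, CD4 Foxp3-positive, CD4 control and CD8 control, and only the first 2 overlapped with each other. For overlap between the lineages no share over all genes was at hand, so such statements here and below are descriptions only.

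Ikzf3 (Aiolos, Entrez gene 22780, chromosome 11, 98464610 to 98546031) rose in both lineages. In CD8 cells it stood at 11.00, 10.80 and 11.04 in Foxp3-positive cells, against 9.50, 9.34 and 9.61 in controls, a 2.76-fold rise (1.46 ± 0.11, adjusted p = 6.9e-07). In CD4 cells it stood at 10.86, 10.74 and 10.86 in Foxp3-positive cells, against 8.55, 8.35 and 8.63 in controls, a 4.95-fold rise (2.31 ± 0.11, adjusted p = 8.12e-09). No Foxp3-positive array overlapped with the controls of its lineage. Here the CD4 cells had the larger rise, with an interaction (the CD8 change minus the CD4 change) of -0.84 ± 0.15 (adjusted p = 0.00253). In controls the CD8 level exceeded the CD4 level by 0.97 ± 0.11 (adjusted p = 2.98e-05), while in Foxp3-positive cells the difference was 0.13 ± 0.11 (95% interval -0.10 to 0.36, adjusted p = 0.627).

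Aiolos is also a B cell gene, so B cell markers were looked at. Of 11 measured B cell markers 3 rose and 0 fell in CD8 cells, where 9.39% of all genes rose and 10.6% fell. In CD4 cells 2 markers rose and 2 fell, where 12.1% of all genes rose and 10.4% fell. The summed signal of the 11 markers, as log2, was 13.19 to 13.32 in CD8 Foxp3-positive and 12.04 to 12.28 in CD8 control cells, and 12.78 to 12.96 in CD4 Foxp3-positive and 11.12 to 11.25 in CD4 control cells. That sum is mostly Ighm, the immunoglobulin heavy chain, at 13.15 ± 0.07 in CD8 Foxp3-positive and 11.99 ± 0.14 in CD8 control cells and at 12.78 ± 0.09 in CD4 Foxp3-positive and 10.96 ± 0.08 in CD4 control cells. The other called markers were Cd79b (1.10 ± 0.15 in CD8 and 0.77 ± 0.15 in CD4 cells) and Cd79a (0.36 ± 0.12 in CD8 cells), chains of the B cell receptor, which rose, and Cd22 (-0.60 ± 0.14) and the B lineage factor Ebf1 (-0.64 ± 0.17), which fell in CD4 cells. The markers Ms4a1 (CD20) and Pax5 (another B lineage factor) were below the median of all genes and not called. Ms4a1 stood at 3.61 ± 0.13 in CD8 Foxp3-positive and 3.57 ± 0.06 in CD8 control cells and at 3.82 ± 0.15 in CD4 Foxp3-positive and 3.82 ± 0.16 in CD4 control cells, while the changes of Pax5 were -0.13 ± 0.10 in CD8 and -0.08 ± 0.10 in CD4 cells (adjusted p = 0.476 and 0.667). The part of B cell RNA in the level of Ikzf3 was not tested.

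Ikzf2 (Helios, Entrez gene 22779, chromosome 1, 69531207 to 69687351) behaved differently in the lineages and scattered most. In CD4 cells its levels were 9.19, 8.73 and 9.76 in Foxp3-positive cells, against 6.61, 6.93 and 6.01 in controls. The 2 sets did not overlap, and the rise was 6.55-fold (2.71 ± 0.38, adjusted p = 0.000171). In CD8 cells the levels were 9.72, 9.00 and 9.95 in Foxp3-positive cells, against 8.58, 8.23 and 9.71 in controls, which overlap. The difference of 0.72 ± 0.38 was not called (95% interval -0.11 to 1.54, adjusted p = 0.244), but was called without CD8 control replicate C (1.15, adjusted p = 0.0351).

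Helios thus stood high in CD8 controls already. In control cells the CD8 level (8.84 ± 0.77) exceeded the CD4 level (6.52 ± 0.47) by 5.01-fold (2.33 ± 0.38, adjusted p = 0.000729). In Foxp3-positive cells the means were 9.56 ± 0.50 in CD8 and 9.23 ± 0.51 in CD4 cells, a difference of 0.33 ± 0.38 (95% interval -0.50 to 1.16, adjusted p = 0.755). From high to low, each of CD8 Foxp3-positive, CD4 Foxp3-positive and CD8 control cells overlapped with the next, and CD4 controls lay apart. The changes in the lineages differed by -2.00 ± 0.54 (adjusted p = 0.0281), a call that was lost when CD8 Foxp3-positive replicate B, CD4 control replicate C, CD4 Foxp3-positive replicate A or CD4 Foxp3-positive replicate C was left out (-2.01 to -1.72, adjusted p from 0.053 to 0.0676).

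Ikzf1 (Ikaros, Entrez gene 22778, chromosome 11, 11684962 to 11772930) was the 1 member that fell, by small amounts. Its levels were 10.56, 10.51 and 10.43 in CD8 Foxp3-positive cells, against 10.80, 10.86 and 10.84 in CD8 control cells (-0.34 ± 0.09, adjusted p = 0.0124). In CD4 cells they were 10.59, 10.37 and 10.36 in Foxp3-positive cells, against 10.98, 11.02 and 10.98 in controls (-0.56 ± 0.09, adjusted p = 0.00035). All Foxp3-positive arrays lay under all control arrays, and the falls amount to 1.26-fold and 1.47-fold. The CD8 call was lost without CD8 Foxp3-positive replicate C (-0.30, adjusted p = 0.0537). The lineages did not differ detectably in the change (0.22 ± 0.12, adjusted p = 0.289), in Foxp3-positive cells (0.06 ± 0.09, 95% interval -0.13 to 0.24, adjusted p = 0.821) or in controls (-0.16 ± 0.09, 95% interval -0.35 to 0.02, adjusted p = 0.237). The control arrays of the 2 lineages nonetheless did not overlap.

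Ikzf5 (Pegasus, Entrez gene 67143, chromosome 7, 131388649 to 131410518) changed least among the members that rose. In CD4 cells it stood at 8.25, 8.32 and 8.06 in Foxp3-positive cells, against 7.75, 7.61 and 7.48 in controls, with no overlap and a 1.52-fold rise (0.60 ± 0.11, adjusted p = 0.00121). In CD8 cells it stood at 8.05, 8.07 and 7.95 in Foxp3-positive cells, against 7.96, 7.73 and 7.67 in controls, where the arrays overlapped by a hair. The difference of 0.24 ± 0.11 was not called (95% interval 0.002 to 0.47, adjusted p = 0.163), though limma's unadjusted p was 0.048. The difference between these changes was not called either (-0.36 ± 0.15, adjusted p = 0.151). In order of level, CD4 Foxp3-positive, CD8 Foxp3-positive, CD8 control and CD4 control cells each overlapped with the next.

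**Figure D2:**
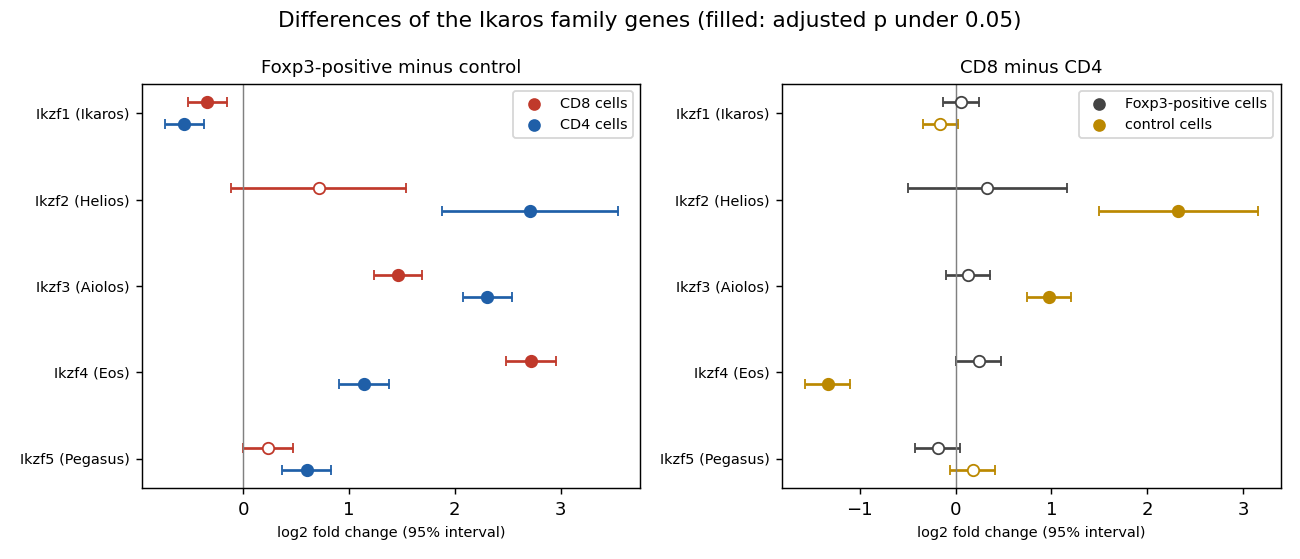
Log2 fold changes (horizontal axes) of the Ikaros family genes (vertical axis) with 95% intervals of the limma model. The left panel gives Foxp3-positive minus control cells in each lineage and the right panel CD8 minus CD4 cells among Foxp3-positive and among control cells. Filled points have an adjusted p under 0.05. In the right panel the Foxp3-positive differences lie between -0.18 and 0.33, while the control differences run from -1.33 for Ikzf4 to 2.33 for Ikzf2.

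Set between the lineages, the family differed in the control cells and showed no called difference in the Foxp3-positive cells. In controls 3 of the 5 Ikaros genes were called between CD8 and CD4 cells, Ikzf2 and Ikzf3 higher and Ikzf4 lower in CD8 cells, where 20.9% of all genes were called. Among Foxp3-positive cells 0 of 5 were called, where limma called 4.71% of all genes, and 1 of the 5, Ikzf4, had an unadjusted p under 0.05. The change itself differed between lineages for the same 3 genes, Ikzf2, Ikzf3 and Ikzf4, against 13.5% of all genes. These comparisons share arrays, so the 3 counts are not independent of each other, and a p that misses the threshold does not show that the levels were equal.

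**Figure D3:**
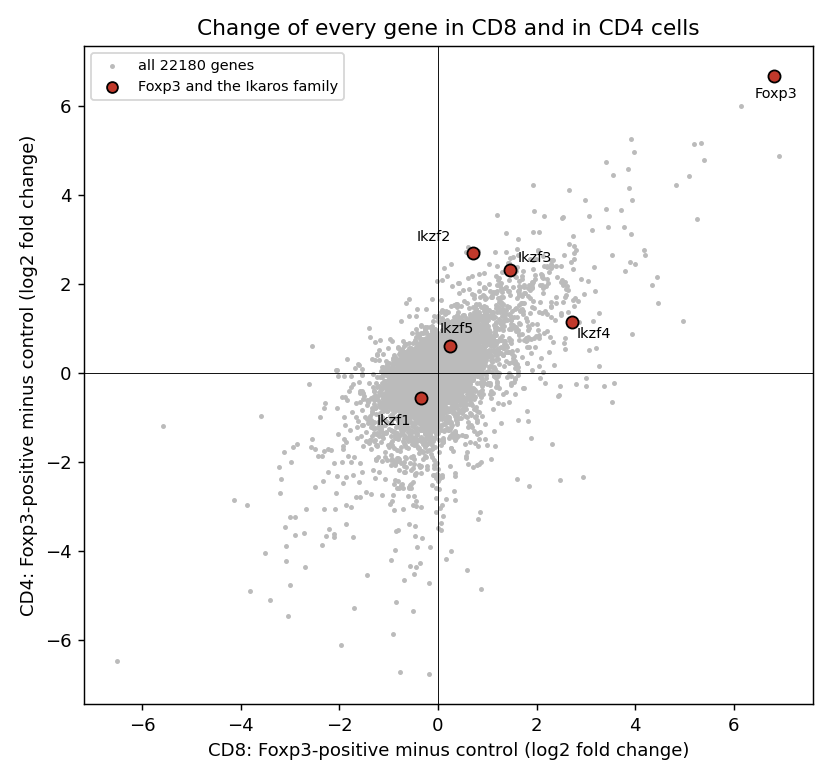
Log2 fold change of Foxp3-positive against control cells in CD8 (horizontal axis) and CD4 cells (vertical axis) for all 22180 genes in grey, with Foxp3 and the Ikaros family genes in red. Foxp3 lies at 6.82 and 6.68, Ikzf2 and Ikzf3 have the larger change in CD4 cells, Ikzf4 in CD8 cells, and Ikzf1 and Ikzf5 lie inside the cloud of all genes.

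The genes whose levels over the 12 arrays were most like each member were taken by Pearson correlation, given here as a description with no test. Candidates had a mean level at or above 5.60 and group means that differed by at least 1 unit. All 12 arrays share the 4 groups, so a high correlation can rest on the group means alone. Foxp3 was closest to Ldlrad4, an inhibitor of Smad signalling (r = 0.997), Cd101, a surface glycoprotein of lymphocytes (0.996), and Lrig1, a regulator of growth factor receptors (0.994). Ldlrad4 had log2 changes of 5.40 ± 0.13 in CD8 and 4.78 ± 0.13 in CD4 cells.

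Ikzf4 was closest to the kinase gene Mapkapk3 (r = 0.998), the activin receptor Acvr2a (0.994) and the nucleobindin Nucb2 (0.988). Acvr2a averaged 8.61 ± 0.05 in CD8 Foxp3-positive and 5.34 ± 0.28 in CD8 control cells, and 8.16 ± 0.08 in CD4 Foxp3-positive and 6.81 ± 0.10 in CD4 control cells, with its lowest level in CD8 controls as for Eos. Ikzf3 was closest to the amino acid transporter Slc43a1 (0.995), the phosphatase gene Ubash3b (0.992) and the ceramide kinase Cerk (0.991). Slc43a1 had log2 changes of 2.52 ± 0.15 in CD8 and 3.50 ± 0.15 in CD4 cells. Since these genes were picked for their likeness, the direction of their changes follows from the choice.

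The likenesses of the other members were somewhat lower. Ikzf2 was closest to Mgst2, a glutathione transferase (r = 0.971), Acss1, a mitochondrial acetyl-CoA synthetase (0.965), and the deubiquitinase Usp28 (0.955). Their log2 changes in CD8 and CD4 cells were 0.39 and 1.28 for Mgst2, 0.92 and 1.76 for Acss1 and 0.42 and 1.80 for Usp28. The CD8 change of Usp28 was not called by limma (adjusted p = 0.172). Those of Mgst2 and Acss1 lost their calls in 5 and 1 of the 12 fits that left out 1 array. Ikzf1 was closest to the surface protease Adam8 (0.972), Med12l (0.971), a Mediator subunit, and Slc9a9, an endosomal sodium and proton exchanger (0.970), of which Adam8 had changes of -3.41 in CD8 and -5.10 in CD4 cells. Ikzf5 was closest to Tgs1, an RNA cap methyltransferase (0.967), the clock repressor Nr1d2 (0.958) and Drc1, an axonemal dynein regulator (0.943).

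**Figure D4:**
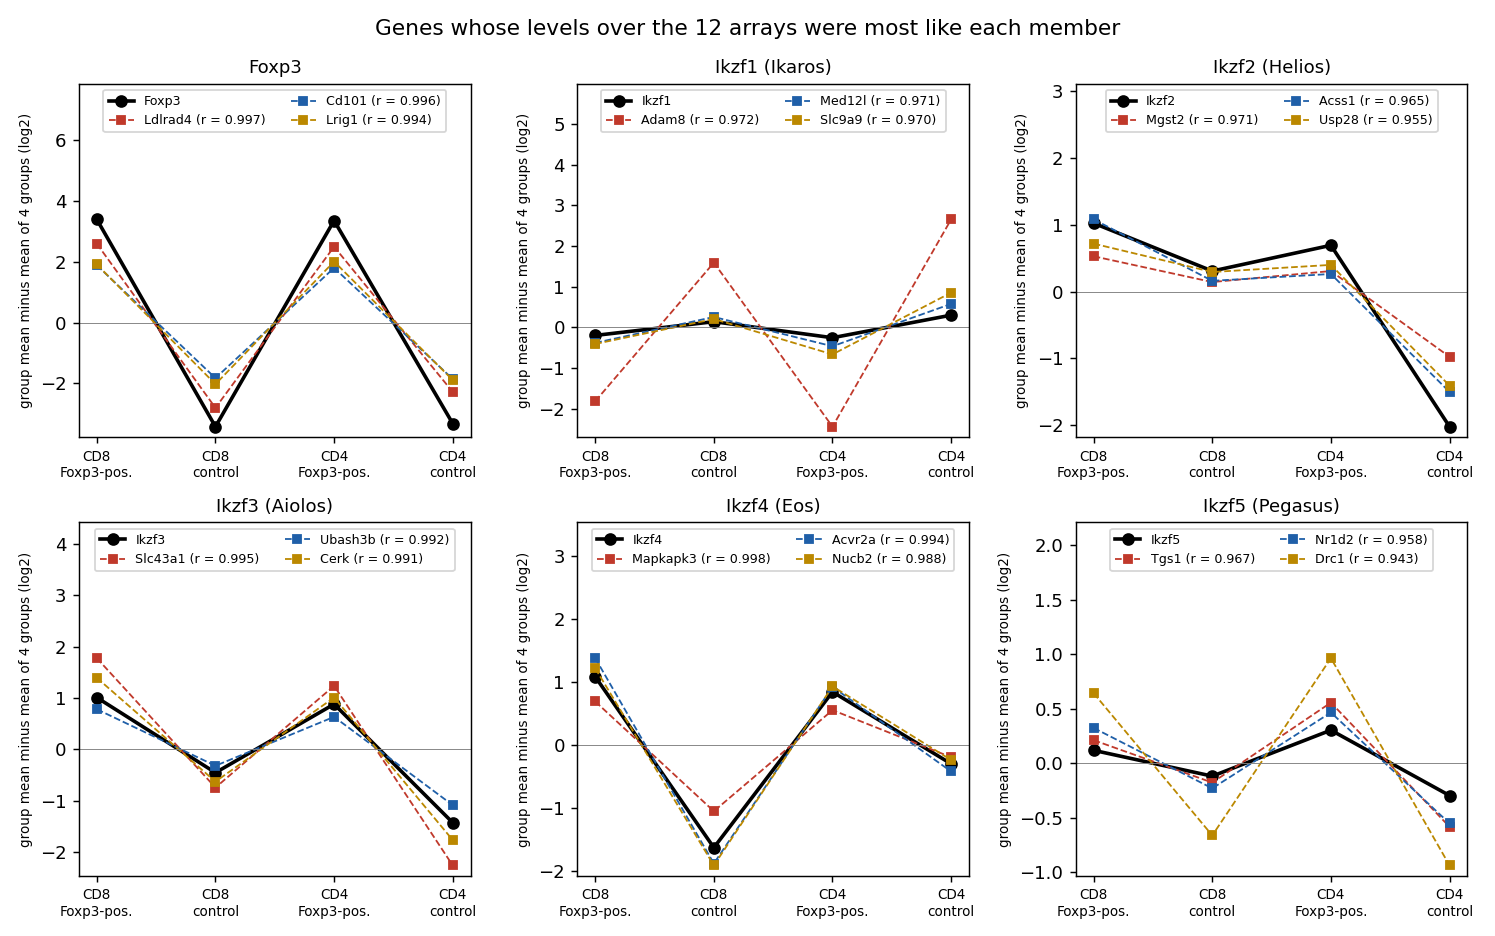
Group means, each minus the mean of the 4 groups (vertical axis, log2), for each member (black) and the 3 genes most like it (coloured, with Pearson's r over the 12 arrays). The lines join separate groups and stand for no order. Ikzf4 and its 3 genes have their lowest mean in CD8 controls, Ikzf2 and Ikzf3 with theirs in CD4 controls.

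The list of NuRD and related corepressor subunits, with which Ikaros proteins and Foxp3 work, held changes in both directions. Of 17 genes 3 rose and 6 fell in CD8 cells, where 9.39% of all genes rose and 10.6% fell, with a median change of -0.19 against -0.02 over all genes, and the 6 dropped to 2 without CD8 Foxp3-positive replicate A and to 3 without CD8 Foxp3-positive replicate B or C. In CD4 cells 2 rose and 2 fell, where 12.1% of all genes rose and 10.4% fell (median 0.03, against 0.00 over all genes), the falls of Mta1 and Ctbp2 dropping to 0 without CD4 control replicate B or CD4 Foxp3-positive replicate B and to 1 without replicate C of the CD4 controls or replicate A or C of the CD4 Foxp3-positive cells. Over the other alternatives, such as other normalizations, the falls numbered 3 to 8 in CD8 and 1 to 4 in CD4 cells. Chd3, a remodelling ATPase, rose in CD8 (0.89 ± 0.10, adjusted p = 2.46e-05) and CD4 cells (1.27 ± 0.10, adjusted p = 7.17e-07), and so did the scaffold Gatad2b (0.54 ± 0.07 and 0.43 ± 0.07, adjusted p = 0.000153 and 0.000713). Rbbp7, a histone-binding subunit, fell in CD8 (-0.63 ± 0.12, adjusted p = 0.00177) and was not called in CD4 cells (0.09 ± 0.12, adjusted p = 0.652). Hdac1, the deacetylase, was not called (0.02 ± 0.09 and 0.15 ± 0.09). Ctbp1, the corepressor that Eos binds, averaged 10.04 ± 0.05 in CD8 Foxp3-positive and 10.33 ± 0.12 in CD8 control cells (-0.29 ± 0.09, adjusted p = 0.0373), and 10.21 ± 0.05 in CD4 Foxp3-positive and 10.11 ± 0.12 in CD4 control cells (0.10 ± 0.09, adjusted p = 0.521), and was chosen after its values were seen.

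Of 26 regulators of Foxp3 transcription 7 rose and 5 fell in CD8 cells, and 8 rose and 6 fell in CD4 cells (medians 0.14 and 0.01). Over all genes 9.39% rose and 10.6% fell in CD8 cells, and 12.1% rose and 10.4% fell in CD4 cells, and the counts of the lists that follow stand against the same shares. Satb1, a chromatin organiser, averaged 8.40 ± 0.23 in CD8 Foxp3-positive and 9.54 ± 0.10 in CD8 control cells (-1.14 ± 0.15, adjusted p = 0.000117), and 8.32 ± 0.32 in CD4 Foxp3-positive and 11.05 ± 0.04 in CD4 control cells (-2.73 ± 0.15, adjusted p = 4.04e-08). The receptor-induced nuclear receptor Nr4a3 rose in CD4 cells by 2.73 ± 0.15 (adjusted p = 3.1e-08) and Nr4a1 by 1.89 ± 0.18 (adjusted p = 4.67e-06). In CD8 cells they rose by 0.56 ± 0.15 and 0.63 ± 0.18 (adjusted p = 0.0144 and 0.0221), calls that were lost without CD8 Foxp3-positive replicate C for both (0.47 and 0.40, adjusted p = 0.0686 and 0.08), without CD8 control replicate A for Nr4a3 (0.51, adjusted p = 0.0609) and without CD8 control replicate B for Nr4a1 (0.47, adjusted p = 0.101). Nfatc1 was not called (0.14 ± 0.10 and 0.02 ± 0.10).

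Among 16 measured forkhead relatives and partners of Foxp3, 4 rose and 2 fell in CD8 cells, and 5 rose and 3 fell in CD4 cells (medians -0.03 and 0.03). The falls in CD8 cells, Ezh2 and Lef1, came to 1 without any of CD8 control replicates A and C and CD8 Foxp3-positive replicates B and C. Foxp1, the closest relative with a role in T cell quiescence, rose by 0.83 ± 0.08 in CD8 and 1.85 ± 0.08 in CD4 cells (adjusted p = 1.47e-05 and 8.13e-09). Runx1, a partner that binds Foxp3, rose by 1.71 ± 0.12 in CD8 cells (adjusted p = 4.64e-07), and by 0.37 ± 0.12 in CD4 cells (adjusted p = 0.0382). The CD4 call was lost in 8 of 12 fits that left out 1 array, and its values ran from 0.34 to 0.41. Foxp2 had group means of at most 5.51, below the median of all genes, and was called in CD4 cells (1.30 ± 0.18, adjusted p = 0.000117). Irf4 was not called (0.09 ± 0.14 and 0.17 ± 0.14).

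Of 21 genes known to be raised in Foxp3-positive T cells, 14 rose and 2 fell in CD8 cells, and 9 rose and 8 fell in CD4 cells, with medians of 0.87 and -0.08. The 2 falls in CD8 cells, Gzmb and Klrg1, came to 1 without replicate A or B of the CD8 controls or replicate C of the CD8 Foxp3-positive cells. This list was written with earlier results of these data known, and its count is no independent evidence. Nrp1, a surface receptor known like Helios from thymus-derived regulatory T cells, averaged 9.64 ± 0.10 in CD8 Foxp3-positive and 6.98 ± 0.13 in CD8 control cells (2.66 ± 0.14, adjusted p = 4.86e-08), and 10.71 ± 0.27 in CD4 Foxp3-positive and 6.59 ± 0.21 in CD4 control cells (4.12 ± 0.14, adjusted p = 7.36e-10). The integrin chain Itgae rose 122-fold in CD8 and 29.3-fold in CD4 cells (adjusted p = 3.83e-12 and 5.18e-11), and the ectoenzyme Nt5e 15.1-fold and 38.5-fold (adjusted p = 8.36e-09 and 4.17e-10). Il10 fell in CD4 cells (-4.86 ± 0.30, adjusted p = 1.1e-07) and in CD8 cells had a change of 0.87 ± 0.30 that was not called (adjusted p = 0.0592), but was called without CD4 Foxp3-positive replicate B or C (0.87, adjusted p = 0.0151 and 0.00381). The CD8 change of Il10 was also called by limma with dim genes left out and with only the groups compared (0.87, adjusted p = 0.0313 and 0.00658). The CD4 arrays enter this change only through the shared estimate of the spread. The choice of Nrp1, and of Il2 among the next genes, was made with their values in view.

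Of 13 measured genes that Foxp3 is known to repress, 3 rose and 4 fell in CD8 cells, and 2 rose and 7 fell in CD4 cells (medians -0.23 and -0.59). The 3 rises in CD8 cells, Sgk1, Tnf and Il4, came to 1 without CD8 Foxp3-positive replicate B. Ifng fell by 2.26 in CD8 and 3.66 in CD4 cells on the log2 scale (adjusted p = 3.1e-05 and 3.16e-07). Il4 averaged 4.51 ± 0.21 in CD4 Foxp3-positive and 8.94 ± 0.24 in CD4 control cells (-4.43 ± 0.15, adjusted p = 5.83e-10), while in CD8 cells it changed by 0.59 ± 0.15 at a low level (adjusted p = 0.0125), a call lost without replicate A of the CD8 controls (0.51, adjusted p = 0.0607) or replicate B of the CD8 Foxp3-positive cells (0.48, adjusted p = 0.0593). Il17f was not called (-0.39 ± 0.14 and 0.24 ± 0.14, adjusted p = 0.0746 and 0.272), though it was in CD8 cells without CD8 Foxp3-positive replicate B (-0.55, adjusted p = 0.00862) and with dim genes left out (-0.39, adjusted p = 0.0353). Il2, which Aiolos and Eos with Foxp3 are known to silence, was among the dimmest genes, at 2.83 ± 0.23 in CD8 Foxp3-positive and 2.94 ± 0.01 in CD8 control cells and 3.29 ± 0.03 in CD4 Foxp3-positive and 3.66 ± 0.38 in CD4 control cells, and was not called (-0.11 ± 0.16 and -0.37 ± 0.16, adjusted p = 0.733 and 0.13).

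Of 19 measured genes known as Ikaros targets in developing lymphocytes, 3 rose and 2 fell in CD8 cells, and 4 rose and 4 fell in CD4 cells (medians 0.09 and -0.21). The calls, 5 of 19 in CD8 and 8 of 19 in CD4 cells, stand against 20.0% and 22.5% of all genes, and the first is close to that share. The 3 rises in CD8 cells came to 1 without replicate B of the CD8 controls or of the CD8 Foxp3-positive cells, and the 4 rises in CD4 cells to 2 without replicate C of the CD4 controls or of the CD4 Foxp3-positive cells. Cdk6, a cell cycle kinase, fell 2.28-fold in CD8 and 2.67-fold in CD4 cells (-1.19 ± 0.12 and -1.42 ± 0.12, adjusted p = 1.65e-05 and 2.47e-06). The repressor gene Bcl6 rose in both lineages (1.34 ± 0.14 and 1.07 ± 0.14, adjusted p = 2.22e-05 and 0.000118). Il7r, the IL-7 receptor chain, fell in CD4 (-1.30 ± 0.22, adjusted p = 0.000701) and was not called in CD8 cells (-0.20 ± 0.22, adjusted p = 0.622).

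**Figure D5:**
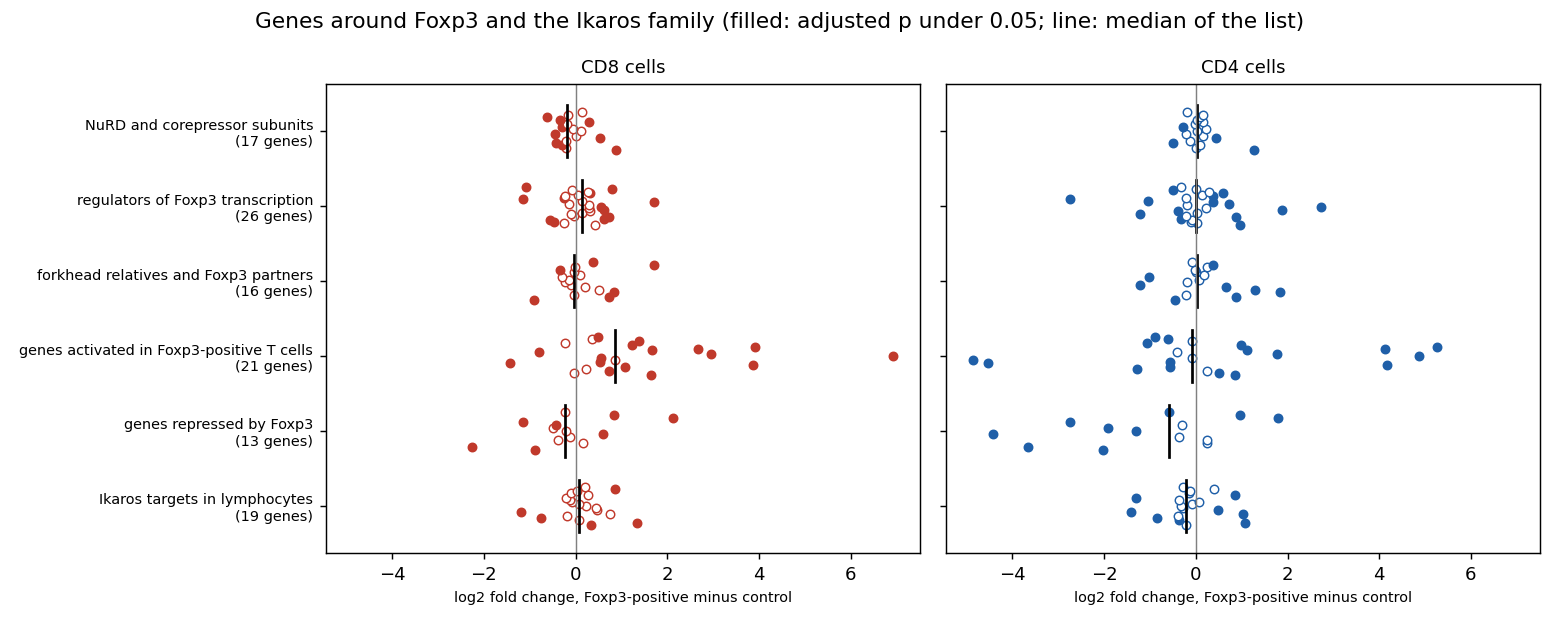
Log2 fold change of Foxp3-positive against control cells (horizontal axes) for each measured gene of 6 lists (vertical axis) in CD8 cells on the left and CD4 cells on the right. Filled points have an adjusted p under 0.05, and the black lines are list medians. The corepressor subunits lie on both sides of 0, from -0.63 to 0.89 in CD8 and from -0.49 to 1.27 in CD4 cells, while the genes raised in Foxp3-positive T cells spread from -4.86 to 6.93.

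Other cells were in the wells. Of 18 measured dendritic cell markers 4 rose and 3 fell in each lineage. Over all genes 9.39% rose and 10.6% fell in CD8 cells, and 12.1% rose and 10.4% fell in CD4 cells. Which cells the marker transcripts came from was not tested. The summed signal of the 18 markers, as log2, was 12.06 to 12.25 in CD8 Foxp3-positive and 11.60 to 11.89 in CD8 control cells, and 11.82 to 12.23 in CD4 Foxp3-positive and 11.80 to 12.06 in CD4 control cells. The sums of the CD8 groups did not overlap and those of the CD4 groups did. Ccr7 (1.52 ± 0.19 in CD8 and 1.06 ± 0.19 in CD4 cells) and Irf8 (0.90 ± 0.12 and 0.95 ± 0.12) rose in both lineages, as did Cd86 and Cst3 in CD8 and Ccl17 and Cd83 in CD4 cells. Ly75 (-1.66 ± 0.14 and -0.99 ± 0.14) and Batf3 (-0.96 ± 0.25 and -1.56 ± 0.25) fell in both, as did Itgax (-1.76 ± 0.13) in CD8 and H2-Ab1 (-1.05 ± 0.33) in CD4 cells, and the other 11 of each lineage were not called. For 11 macrophage or monocyte markers the sums were 9.16 to 9.55 and 9.26 to 9.62 in the CD8 groups and 8.93 to 9.12 and 9.42 to 9.52 in the CD4 groups, and for 6 NK cell markers 9.24 to 9.51 and 9.30 to 10.08 in the CD8 groups and 8.54 to 8.79 and 9.06 to 10.02 in the CD4 groups, Foxp3-positive cells before controls. Their part in the levels of the Ikaros family genes was not tested.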

How the data were processed

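RNA of 12 sorted T cell samples was hybridised to Affymetrix mouse arrays from 250 ng of total RNA, per the labels' protocols. Affymetrix Expression Console and RMA (background correction, quantile normalization and probe summary) are named in the submitters' processing notes, and the deposited values are log2 expression levels, with array medians of 5.226 to 5.333. For software versions and the genome build, the status is: not given in the sources used here. Scanner files were not used, so background correction was not repeated.

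Of 34365 transcript clusters, 23521 have exactly 1 gene symbol in the platform annotation, 1814 several and 9030 none. The brightest cluster by its mean over the 12 arrays stood for a gene, which gave 22180 genes. Models were fitted with limma 3.58.1 in R 4.3.3 (lmFit and eBayes, 4 group means over all 12 arrays, two-sided, threshold 0.05), with Benjamini-Hochberg adjustment over all genes, and the procedure was tested on simulated data. RMA compresses changes of dim genes, and a fold change is a ratio of array signal. Deviations from the group means correlated at -0.10 to 0.14 over 18 pairs of arrays with the same letter, and the labels give the letters no meaning, so the letters were not taken as pairs and stayed out of the model. Among arrays of the other groups, 10 of the 12 arrays still correlated best with an array of their own letter. A fit with the letter as a block is therefore given below.

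The members and gene lists were chosen with earlier results of these data known. Named beside the members are the 3 genes most like each member by Pearson correlation (predicted genes, clone names and small RNAs passed over), and from each pathway list the 3 largest called changes and the brightest gene not called, with members of counts of at most 5. Alternatives were each array left out, a replicate block, eBayes with trend and robust, quantile or cyclic loess normalization again, median centring, dim genes left out, the mean of a gene's clusters, and only the groups compared.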

Additional observations from a re-analysis of the deposited data

Results flagged for a closer look

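The change between Foxp3-positive and control cells differed between CD8 and CD4 cells, by limma's interaction term (CD8 change minus CD4 change, log2), for 3 of the Ikaros family genes. It was 1.58 for Ikzf4 (adjusted p = 3.6e-05), -0.84 for Ikzf3 (adjusted p = 0.00253) and -2.00 for Ikzf2 (adjusted p = 0.0281).

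Of the genes most like a member, the interaction passed for those of Ikzf4, at 1.00 for Mapkapk3, 1.92 for Acvr2a and 1.97 for Nucb2, and for those of Ikzf3, at -0.98 for Slc43a1, -0.62 for Ubash3b and -0.75 for Cerk. It passed for Mgst2 (-0.90) and Usp28 (-1.38) beside Ikzf2, for Adam8 (1.69) and Slc9a9 (0.91) beside Ikzf1, for Tgs1 (-0.75) beside Ikzf5 and for Ldlrad4 (0.62) beside Foxp3. The genes were picked for a likeness over the same arrays, so their signs follow those of the members.

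Among the genes of the lists the interaction passed for Rbbp7 (-0.72), Satb1 (1.59), Nr4a3 (-2.16), Nr4a1 (-1.26), Foxp1 (-1.01), Runx1 (1.34), Itgae (2.05), Nt5e (-1.35), Il10 (5.72), Il4 (5.02), Ifng (1.40) and Il7r (1.10). The calls of Ifng, Il7r and Ldlrad4 were lost in 5, 6 and 10 of the 12 fits that left out 1 array, with adjusted p up to 0.0548, 0.0798 and 0.089 and values of 1.13 to 1.74, 0.82 to 1.30 and 0.52 to 0.79.

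A transcript cluster outside the comparisons carries the symbols Ccdc22, Foxp3 and Ppp1r3f together and cannot be given to 1 gene. It stood at 7.68 ± 0.14 in CD8 Foxp3-positive and 7.14 ± 0.14 in CD8 control cells, and at 7.60 ± 0.07 in CD4 Foxp3-positive and 6.96 ± 0.05 in CD4 control cells (SD, n = 3 each). The differences of 0.54 and 0.64 were not tested, and the arrays of the groups did not overlap.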

How the results depend on the processing

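Of 594 values of the members under the alternatives, 586 stayed on their side of the threshold, 6 lost the call, 2 gained it and 0 called changes reversed. The untested Foxp3 changes were counted as kept where they held their direction and moved by less than the largest group SD. Uncalled values could change sign and still count as kept, as the Foxp3 difference between controls did. With 1 array left out, the Ikzf2 change in CD8 cells ran from 0.41 to 1.15, the Ikzf2 interaction from -2.30 to -1.56, the Ikzf1 change in CD8 cells from -0.37 to -0.30 and the Foxp3 difference between controls from -0.44 to 0.11. Genes called between CD8 and CD4 Foxp3-positive cells ran from 674 (without CD8 Foxp3-positive replicate B) to 1145, against 1044 over all arrays, and were 687 without CD4 Foxp3-positive replicate A. The Ikzf2 interaction also lost its call with trend and robust eBayes (-2.00, adjusted p = 0.05995); the cause was not tested. With the replicate block, limma called 4359 genes in CD8 and 4872 in CD4 cells, 2921 for the interaction, 989 between the Foxp3-positive and 4595 between the control groups, and the block changed no call of a member (Ikzf2 interaction -2.00, adjusted p = 0.0245); the CD8 change of Usp28 was called with it (0.42, adjusted p = 0.034). In their deviations from the group means, and among arrays of the other groups only, 10 of the 12 arrays correlated best with an array of their own letter. This is a hint from the data only. For the other named genes and list counts, 2724 of 2837 values stayed on their side of the threshold or, for counts, within 1.5 times. Of the rest 58 lost the call, 25 gained it and 30 counts moved by over 1.5 times. Here too a change of sign in an uncalled value was not counted. With no measured array background, how far it limits the fold changes of dim genes was not tested.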
